A study of Mus musculus with 249 samples.

Results

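The set described here is every 40 kb window of mouse chromosome 11 that starts at 3 Mb or beyond in the mm9 assembly, 2972 of the 68162 windows listed for the genome. Chromosome 11 was picked because its windows were, on average, positive in more libraries than those of any other autosome. That average is therefore a description and was not tested. Multiplex genome architecture mapping (multiplex-GAM) records which stretches of DNA fall into the same thin slices of nuclei. All libraries came from 46C-ES cells, a mouse embryonic stem cell line of strain 129/Ola, and each pooled 4 laser-microdissected slices of cells in 1 cap before whole genome amplification. Not every slice of a cell cuts its nucleus, so a library can hold fewer nuclear slices than that. A window has the value 1 in a library in which it was called positive and 0 in any other, so a level below is a number of libraries or a percent of windows.

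The libraries belong to 11 experiments, 7 of which had more than 1 arm. Reagent volumes were varied as protocol a (10 libraries), protocol b (11) or protocol c (10). Proteinase K was given in amounts that the titles put at 1 µl (5) or 2 µl (6), and the PCR ran for 20 (4), 23 (5) or 25 (3) cycles. The protocol text gives smaller proteinase K volumes than the titles, so the amounts are uncertain and serve here as names. Caps were unfrozen (11) or frozen after incubation (10) in one experiment, and frozen late (11) or early (12) in another. Sections were unstained (10) or stained with cresyl violet (16), and amplification kits were titled small (12) or large (11). The other libraries were the unstained arms of the tests of eosin (18), propidium iodide with freezing (20) and SYBR Gold (10), and a full collection of 54. The SYBR Gold libraries are titled unstained, while their protocol text describes a staining step, so their staining is uncertain. All shared the cell line and genotype, and nothing in the labels says which came from separate cultures, so p-values below measure the spread between these libraries. An experiment cannot be told apart from its protocol or from anything else that its libraries shared.

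A chromosome of an interphase nucleus occupies a territory of its own, and a thin slice through the nucleus cuts some territories and misses others. Loci that lie close together in space tend to be cut by the same slice, so their joint detection over many slices measures their proximity. Mouse chromosomes are acrocentric, with the centromere next to the first base that the assembly resolves. Chromosome 11 is known for its many genes and its high content of G and C bases, and it carries the Hoxb cluster of developmental regulators, the tumour suppressor Trp53 and the keratin and cytokine gene clusters.

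Sequence from the extremes of detection is given first, since these windows differ in what their bases share with the rest of the genome. Each run is 300 bases of the mm9 reference assembly, taken next to the centre of a window and outside every annotated exon. Capitals mark bases inside a 32-base stretch that occurs again elsewhere in the assembly, on either strand. The first pair are the windows detected most often, and the last pair are the positive windows with the fewest libraries.
Window starting at 3040001, chr11:3059650-3059949, plus strand: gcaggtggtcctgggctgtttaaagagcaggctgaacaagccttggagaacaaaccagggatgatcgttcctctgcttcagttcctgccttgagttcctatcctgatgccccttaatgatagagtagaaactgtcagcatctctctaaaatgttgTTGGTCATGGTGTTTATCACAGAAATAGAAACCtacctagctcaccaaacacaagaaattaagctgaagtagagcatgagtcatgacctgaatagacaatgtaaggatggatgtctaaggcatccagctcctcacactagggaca
Window starting at 3080001, chr11:3099850-3100149, plus strand: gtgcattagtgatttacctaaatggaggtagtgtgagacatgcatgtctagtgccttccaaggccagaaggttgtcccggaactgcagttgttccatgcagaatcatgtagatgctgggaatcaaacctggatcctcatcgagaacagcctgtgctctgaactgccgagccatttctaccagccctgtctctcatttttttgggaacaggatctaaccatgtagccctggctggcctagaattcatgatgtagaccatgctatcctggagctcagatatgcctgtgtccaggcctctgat
Window starting at 71040001, chr11:71060050-71060349, plus strand: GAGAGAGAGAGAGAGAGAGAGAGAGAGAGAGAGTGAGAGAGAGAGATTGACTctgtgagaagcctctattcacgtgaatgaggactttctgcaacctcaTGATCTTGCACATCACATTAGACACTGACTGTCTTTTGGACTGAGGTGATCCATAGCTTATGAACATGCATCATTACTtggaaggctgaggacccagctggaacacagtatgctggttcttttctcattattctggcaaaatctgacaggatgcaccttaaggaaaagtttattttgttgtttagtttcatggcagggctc
Window starting at 27760001, chr11:27779850-27780149, plus strand: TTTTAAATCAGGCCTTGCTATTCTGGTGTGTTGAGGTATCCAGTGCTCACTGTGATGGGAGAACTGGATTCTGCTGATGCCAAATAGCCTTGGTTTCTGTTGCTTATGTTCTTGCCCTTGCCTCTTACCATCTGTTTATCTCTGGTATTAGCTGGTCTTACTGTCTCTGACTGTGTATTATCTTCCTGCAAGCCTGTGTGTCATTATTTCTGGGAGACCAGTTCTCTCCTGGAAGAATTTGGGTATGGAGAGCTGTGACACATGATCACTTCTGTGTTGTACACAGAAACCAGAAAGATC

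In the first pair, 33 and 0 of 300 bases were in capitals. In the last pair, 130 bases were repeated at 71040001, among them a run of GA repeats, and 300 at 27760001. The first pair of stretches lay in introns of Sfi1, which encodes a centrin-binding protein of the spindle pole, and of Drg1, which encodes a GTP-binding protein. The stretch at 71040001 lay in an intron of the pseudogene Nlrp1c-ps, and that at 27760001 was outside annotated genes (GENCODE vM1).

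Almost all chromosome 11 windows were detected in many libraries, at levels that varied along the chromosome. A window was positive in 55.8 ± 10.8 libraries (mean ± SD over 2972 windows), the median was 56, and the middle 50% of windows, from the lower to the upper quartile, lay between 49 and 62. Of all windows, 2962 (99.7%) were positive in at least 25 libraries and 2862 (96.3%) in at least 40. Detection changed gradually from window to window. The correlation of the number of libraries between windows positive in 25 to 100 libraries (Pearson's r over window pairs of 1 chromosome, a description) was 0.71 for direct neighbours, 0.54 at 0.2 Mb, 0.25 at 1 Mb and 0.00 at 5 Mb.

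Just 4 windows were positive in more than 100 libraries, and 3 of them were the first members of the set. The window at chr11:3000001-3040000 was positive in 218 libraries, chr11:3040001-3080000 in 242 and chr11:3080001-3120000 in 235. All were positive in libraries of each of the 11 experiments. None of the listed windows of chromosome 11 below 3 Mb, outside the set, was positive in any library, and whether reads can align there was not tested. The first of them had a repeated share of 42.1%, meaning that 42.1% of its 32-base stretches occurred again in the assembly. The shares of the next windows, 12.6% and 10.7%, were closer to the chromosome's mean of 11.3% ± 10.3 (SD over windows). The fourth was chr11:53920001-53960000 at 118 libraries, which holds P4ha2, encoding a collagen prolyl hydroxylase, and had a repeated share of 12.3%.

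Of the 10 windows below 25 libraries, 7 had a repeated share above 40%, a level that 67 of all 2972 windows reached. Above 90% were 4 of these 10 and 5 of all windows. They were chr11:27760001-27800000, positive in 8 libraries with a repeated share of 99.1%, chr11:60400001-60440000 (13 libraries, 97.7%), chr11:60440001-60480000 (18 libraries, 94.5%) and chr11:48760001-48800000 (24 libraries, 95.3%). The last of these holds genes of multigene families, among them Tgtp1, an interferon-induced GTPase, and the olfactory receptor gene Olfr56. The fifth window above 90% was positive in 36 libraries.

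The lowest repeated share among these 10 windows was 18.5%, above the chromosome's upper quartile of 14.1%. Around Nlrp1b, which encodes an inflammasome sensor, 3 adjacent windows from 71000001 to 71120000 were positive in 11, 2 and 14 libraries, with repeated shares of 45.9%, 18.5% and 27.9%. In the windows at 34440001 (24 libraries, in Dock2) and 88400001 (17 libraries, in Msi2), only 5022 and 8825 of the 40000 bases are resolved in the assembly, with repeated shares of 45.3% and 20.1%. The last window, chr11:121840001-121843856, has 3856 bases, was positive in 0 libraries and had a share of 51.4%. Over all windows the repeated share and detection were weakly related, with a Pearson's r of -0.17 and a Spearman's rho of -0.08 over 2972 windows of the same libraries. Windows with repeated shares under 10% were positive in 56.4 ± 8.6 libraries (SD, 1897 windows). The means of the classes up to 20, 30, 40 and 60% were 57.0, 53.5, 50.5 and 52. Of the windows above 100 libraries, 3 were in the class up to 20% and 1 in that up to 60%, which raised both means. The 11 windows of 60% or more were positive in 29.8 ± 11.9. The class medians, from the lowest share up, were 56, 57, 54, 50, 52 and 36, which did not fall at every step. How many reads aligned to each copy was not tested, because the table holds no reads.

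**Figure D1:**
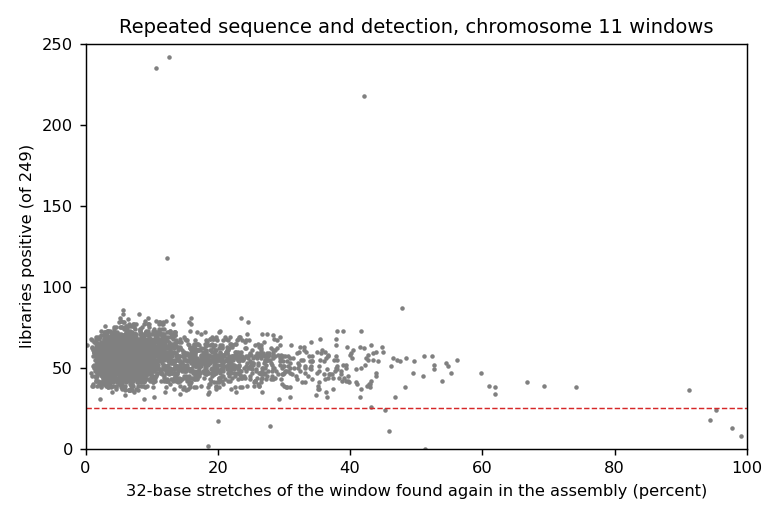
Number of libraries in which a chromosome 11 window was positive (y axis) against the percent of its 32-base stretches that occur again in the assembly (x axis). Each dot is a 40 kb window, and the dashed line marks 25 libraries. The 3 windows above 200 libraries have shares of 10.7 to 42.1%, and 4 of the windows under the line lie above 90%.

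Detection was higher where GC content was higher. Over the 2958 windows positive in 25 to 100 libraries, the number of libraries and the GC content had a Pearson's r of 0.28 and a Spearman's rho of 0.29. Over the 119 bins of 1 Mb, averaged over the same windows, r was 0.52 and rho 0.50. With no window left out for its detection, r was 0.24 and rho 0.29 over 2970 windows with a GC value, and 0.49 and 0.50 over the bins. These are descriptions across sites that share the same libraries. The third of bins with the highest GC content, 45.7 to 51.2%, averaged 59.3 ± 5.4 libraries (SD, 39 bins), and the third with the lowest, 36.4 to 42.2%, averaged 51.8 ± 6.2 (39 bins). Rich bins held 23.6 protein-coding gene starts each and poor bins 4.49. Among these bins, the one from 97 to 98 Mb was detected most, with a mean of 73.5 libraries, a GC content of 48.6% and 27 gene starts. With all 25 windows, the bin from 3 to 4 Mb was higher, at 85.3 libraries, against 65.3 without its 3 windows above 100. The bin from 92 to 93 Mb was detected least, with 41.1 libraries, a GC content of 38.2% and 1 gene start.

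Genes were then read by role, as a description, since the ranges of the roles overlap and no test compared them. A list of 51 genes was drawn up by role, and 50 of them were found in the annotation (GENCODE vM1, mm9), each taken at the window that holds its start. Of all chromosome 11 windows, 47.1% lay above the chromosome's median of 56 libraries. Of the 9 genes expressed in most cells that were found, 9 lay above it, with a median of 64 libraries and a range of 59 to 74. The highest was Rpl23a, which encodes a ribosomal protein, at 74 libraries, followed by Polr2a, the largest subunit of RNA polymerase II, at 71, and Top2a, a topoisomerase of dividing cells, at 70. Their windows were also rich in GC, with a median of 49%.

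Genes of stem cell signalling had a median of 66 libraries, with 4 of 5 above 56. Stat3, which transmits the LIF signal that keeps these cells undifferentiated, was at 66, Vezf1, a zinc finger transcription factor, at 71, and Nog, an antagonist of BMP signalling, at 56. Among developmental regulators, 8 of 11 were above 56. The Hoxb1, Hoxb9 and Hoxb13 windows were at 62, 63 and 66, while Sox9, a regulator of cartilage and testis formation, was at 54 and the Wnt ligand genes Wnt3 and Wnt3a at 47 and 51. Growth control genes, some of them imprinted, had a median of 61, with 6 of 8 above 56. Trp53 was at 61, Grb10 at 62, the growth factor receptor gene Egfr at 65 and Nf1, an inhibitor of Ras, at 48.

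Tissue-restricted genes had a median of 52 libraries, with a range of 43 to 67 and 3 of 17 above 56. Kcnj2, a potassium channel gene, was at 46, and the muscle myosin genes Myh1, Myh4 and Myh8 were at 49, 53 and 47. The exceptions were Gh (growth hormone) at 67, Krt14 (a keratin of basal epithelium) at 66 and the chemokine gene Ccl5 at 65. The median GC content of the tissue-restricted windows was 45.4%, and the part of GC content in these levels was not tested.

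The chromosome was cut at every 10 Mb into 12 segments, of which the first is shorter (3 to 10 Mb, 175 windows) and the last longer (from 110 Mb to the end, 297 windows). Mean detection ran from 19.8% to 25.5% of libraries, the latter in the short first segment. Each segment was compared with the rest of the chromosome in the same library by sign-flip permutation over all libraries (two-sided), adjusted over the 12 segments by the Benjamini-Hochberg method. A pair of segments passed. The segment from 40 to 50 Mb was positive in 19.8% of libraries against 22.7% for the rest, a difference of -2.83 ± 0.82 points (SE, adjusted p = 0.00588). It was higher than the rest in 89 libraries and not in the other 160, and by experiment means it was higher in 2 of 11. Leaving out each experiment in turn gave -3.33 to -2.48 points, with adjusted p-values of 0.00264 to 0.047.

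The first segment, from 3 to 10 Mb, was positive in 25.5% of libraries against 22.2% for the rest (difference 3.28 ± 1.11 points, SE, adjusted p = 0.0235). It was higher in 123 libraries and not in 126, and the median difference was -0.216 points, so the mean and the median point opposite ways. Without the windows positive in more than 100 libraries, the difference was 2.11 points and did not pass (adjusted p = 0.377). The other 10 segments differed from the rest by -1.51 to 1.08 points and did not pass, the segment from 30 to 40 Mb being the lowest of these (adjusted p = 0.328). Without the full collection that segment was at -2.65 points and passed (adjusted p = 0.0455). Over segments, GC content and detection had a Spearman's rho of -0.01 (12 segments, a description). The gene-poor segment from 10 to 20 Mb, with 2.50 gene starts per Mb and a GC content of 39.5%, was detected in 22.4% of libraries, and the gene-dense one from 90 to 100 Mb, with 23.0 starts per Mb, in 22.4%. The stretch from 85 to 95 Mb, a segment once the edges are moved by 5 Mb, was at 21.2%, 1.38 points below the rest (adjusted p = 0.239).

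**Figure D2:**
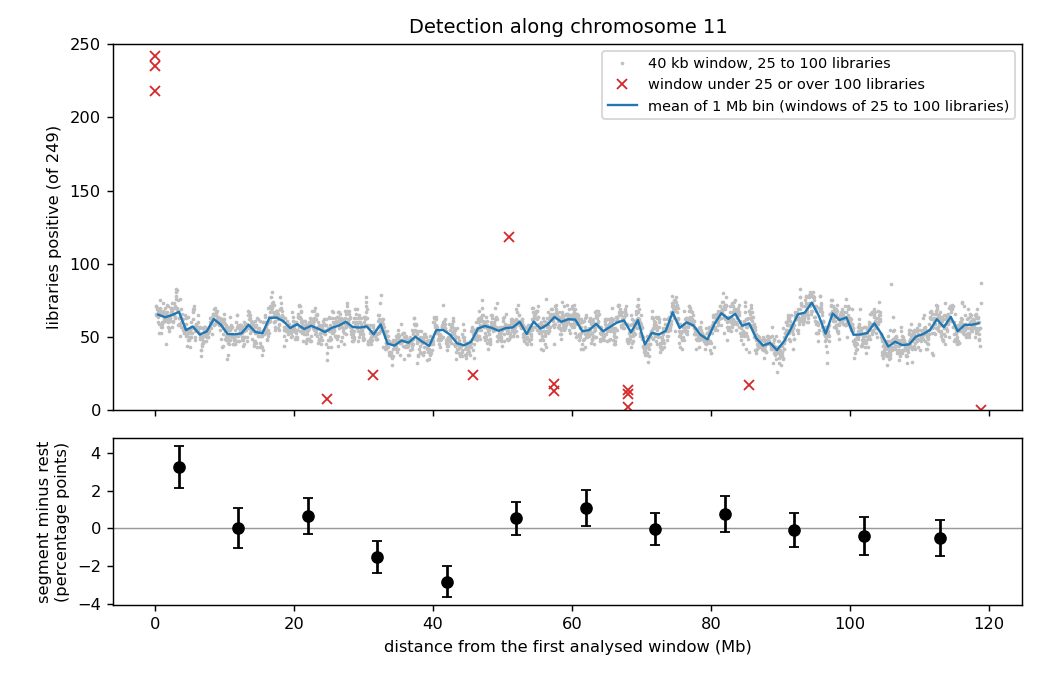
Top, number of libraries in which each 40 kb window of chromosome 11 was positive against the distance from the first analysed window in Mb. Grey dots are windows of 25 to 100 libraries, red crosses are windows outside that range and the blue line is the mean of 1 Mb bins. Bottom, the percent detection of each 10 Mb segment minus that of the rest of the chromosome, as mean ± SE over all libraries. The fifth segment lies lowest, at -2.83 points.

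In a single library, chromosome 11 was sampled less evenly than the mean implies. On average 22.4% ± 14.3 (SD over all libraries) of its windows were positive, with a lowest value of 0.101%, a median of 20.6% and a highest of 62.9%. The other autosomes as 1 set were at 19.7% ± 8.34. Chromosome 11 exceeded them by 2.72 ± 11.6 points (SD), was higher in 147 libraries and not in 102, and ranged from -25.2 to 36.4 points around them. Fewer than 5% of chromosome 11 windows were positive in 23 libraries, and 40% or more in 35. For the other autosomes pooled, which are many chromosomes rather than 1, these numbers were 5 and 6. Single autosomes spread much as chromosome 11 did. Their SD over libraries ran from 11.7 to 14.2 points, and 9 to 21 libraries had under 2% of an autosome's windows positive, against 14 for chromosome 11.

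The libraries at both ends show how far the sampling can go. An unstained library of the propidium iodide experiment (replicate 10) had 3 positive chromosome 11 windows, or 0.101%, in a single run of 0.12 Mb, while 22.9% of other autosomal windows were positive. Unfrozen replicates 3 and 9 of the freezing after incubation experiment were at 0.135 and 0.336%, with 3.47 and 12.7% of the other autosomes positive. The first of these was low on the other autosomes too. At the other end, small-kit replicate 9 reached 62.9% of chromosome 11 against 26.5% of the other autosomes. Early-frozen replicates 7 and 10 were at 55.5 and 55.3%, with 38.1 and 42.8% elsewhere. Positive windows lay in runs. The longest uninterrupted run on chromosome 11 averaged 0.99 ± 0.73 Mb (SD over all libraries) and ran from 0.08 to 4.44 Mb. On average 45.8% ± 22 of positive windows were in runs of at least 0.2 Mb.

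Set beside the other autosomes, chromosome 11 ranked first of 19 in mean detection, in mean GC content (43.8%) and in protein-coding gene starts per Mb (13.9). The next highest in detection, chromosome 9, was positive in 21.6% ± 13.4 of windows per library and had a GC content of 42.7%, and the lowest, chromosome 14, was at 17.4% ± 12.9 and 41.2%. Within each of 7 classes of GC content, chromosome 11 windows were positive in more libraries than those of the other autosomes, by 2.57 libraries at 48% GC or more up to 6.11 libraries under 38% GC. The detection values chose the chromosome or follow from that choice, and no test was made of them or of GC content and gene starts.

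Differences between experiments in the excess of chromosome 11 did not exceed the spread between libraries. Its mean over the other autosomes ran from 0.270 ± 11.3 points (SD, n = 54) in the full collection to 8.67 ± 16.1 (n = 12) in the PCR experiment. The F statistic over the 11 experiments was 0.978 (permutation p = 0.463, adjusted over chromosomes p = 0.662). In the same test, 1 of 20 chromosomes (5.00%) passed, and chromosome 11 was not among them. The proteinase K libraries had the lowest level, 16.1% ± 9.2 of chromosome 11 windows (n = 11), and the PCR libraries the highest, 30.2% ± 16.0 (n = 12).

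Arms were compared within their experiment by permutation, and none of the 11 comparisons of the percent of chromosome 11 windows passed after adjustment over the 22 tests of both measures. At an unadjusted p under 0.05 there were 3. Early-frozen libraries had 36.2% ± 11.5 of chromosome 11 windows positive (n = 12) against 18.3% ± 17.1 for late-frozen ones (n = 11), a difference of 17.9 points (permutation p = 0.00859, adjusted 0.0945). Small-kit libraries were at 34.5% ± 13.9 (n = 12) and large-kit libraries at 17.5% ± 11.7 (n = 11), a large minus small difference of -17 points (permutation p = 0.00538, adjusted 0.0945). The other autosomes moved with both, at 30.4 against 18.1% and 24.3 against 15.5%.

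With 25 PCR cycles, chromosome 11 was at 35.1, 47 and 55.1%, and with 20 cycles at 9.15, 31.9, 30.7 and 28.5%. These arms did not overlap, and they differed by 20.7 points (exact permutation p = 0.0286, the smallest that 3 against 4 libraries can give, adjusted 0.210). The other autosomes were at 25.6% with 25 cycles and 15.1% with 20 cycles. The 5 libraries of 23 cycles spread over both, at 43.4, 1.08, 39, 30.0 and 12%. Proteinase K libraries titled 1 µl were at 22.3, 14.4, 15.0, 13.1 and 32.7%, and those titled 2 µl at 7.44, 24.5, 25.8, 2.83, 10.3 and 8.21%, with overlap and no passing difference (exact permutation p = 0.271, adjusted 0.632). Taken relative to the other autosomes of the same library, chromosome 11 passed in none of the 11 comparisons, with a lowest permutation p of 0.111 and a lowest adjusted p of 0.524.

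**Figure D3:**
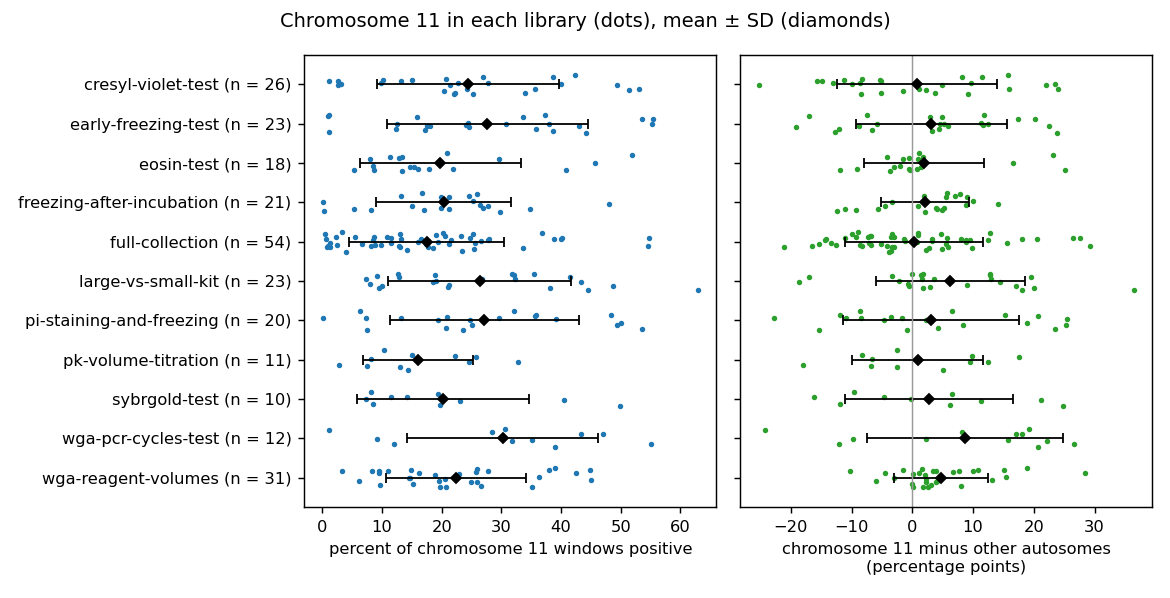
Percent of chromosome 11 windows positive (left) and that percent minus the percent of other autosomal windows (right, percentage points) in each library, by experiment. Dots are libraries, and diamonds with bars are mean ± SD. The libraries of each experiment cover a wide range that overlaps with every other experiment, and experiment means on the right lie between 0.270 and 8.67 points.

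Joint detection of windows was measured by the normalized linkage D′, the excess of co-detection over the product of both detection frequencies, divided by its largest possible size. At these frequencies the largest possible deficit is smaller than the largest possible excess, so negative D′ values are stretched, and levels were judged against windows on other chromosomes, not against 0. The mean D′ between chromosome 11 and the 18 other autosomes was 0.0216 ± 0.0092 (jackknife SE over libraries). With covariance taken within experiments it was 0.0106, and linkage within chromosome 11 was lower as well, so the difference between them at 0.04 to 0.2 Mb went from 0.539 to 0.522.

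Linkage within chromosome 11 fell with distance and stayed above the level with other chromosomes over most of its 119 Mb. It was 0.560 ± 0.008 from 0.04 to 0.2 Mb (SE), 0.358 ± 0.009 from 0.5 to 1 Mb and 0.197 ± 0.010 from 2 to 5 Mb. Beyond 5 Mb the decline slowed, from 0.161 ± 0.011 at 5 to 10 Mb to 0.149 ± 0.011 at 10 to 20 Mb and 0.134 ± 0.011 at 20 to 40 Mb. It then fell to 0.104 ± 0.012, 0.0737 ± 0.0142 and 0.0606 ± 0.0162 at 40 to 60, 60 to 80 and 80 to 120 Mb. In 10 of 11 distance classes it exceeded linkage with other autosomes by a sign-flip permutation test over libraries. The linkage tests used jackknife pseudovalues, the values that leaving out each library in turn gives for it. Their mean is a bias-corrected difference, so a p-value here and below need not match the printed difference and its SE. The adjusted p was 1.22e-05 in the classes up to 60 Mb, where the unadjusted p was 1e-05, the smallest that these permutations can give, and 0.000935 at 60 to 80 Mb.

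Windows 80 to 120 Mb apart, the widest class, exceeded linkage with other autosomes by 0.0391 ± 0.0144 (SE, adjusted permutation p = 0.0536), which did not pass. With the plain correlation of the 0 and 1 values (phi) in place of D′, the same class was at 0.0658 ± 0.0105 against 0.0423 ± 0.0048 with other autosomes, and passed (adjusted p = 0.0102). Leaving out each experiment in turn gave D′ differences of 0.0356 to 0.0487, with adjusted p-values of 0.0178 to 0.103. The class did not pass without windows above 100 libraries (0.0377, adjusted p = 0.0655) or with covariance within experiments (0.0366, adjusted p = 0.0574).

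No distance class distinguished chromosome 11 from the other autosomes. Against their mean, taken over chromosomes long enough for the class, its linkage was 0.0104 ± 0.0057 higher from 0.04 to 0.2 Mb (0.560 against 0.550, adjusted p = 0.755) and 0.0121 ± 0.0113 higher from 20 to 40 Mb (0.134 against 0.122, adjusted p = 0.771). From 60 to 80 Mb the difference was -0.0091 ± 0.0143 (0.0737 against 0.0828, adjusted p = 0.771). None of the 11 classes passed, and none was under 0.05 unadjusted. The 95% interval of the difference was -0.0007 to 0.0216 in the shortest class and -0.0392 to 0.0245 in the longest. Chromosome 11 ranked from 2nd of 19 in the shortest class to 14th of 19 from 1 to 2 Mb.

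**Figure D4:**
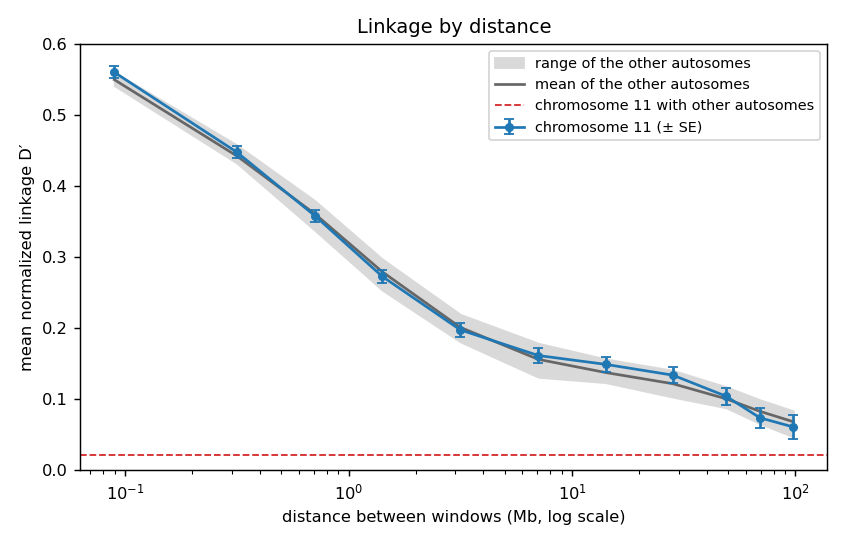
Mean D′ (y axis) of window pairs by distance (x axis, Mb on a log scale). Blue points are chromosome 11 with jackknife SE, the grey line and band are the mean and range of the other autosomes, and the dashed line is chromosome 11 with other autosomes, at 0.0216. Chromosome 11 falls from 0.560 to 0.0606 and keeps near the grey line.

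No partner chromosome passed the test. The mean D′ of chromosome 11 was highest with chromosomes 3 (0.0354 ± 0.0138, SE) and 9 (0.0335 ± 0.0132) and lowest with chromosomes 7 (0.0068 ± 0.0162) and 19 (0.0026 ± 0.0151). All 19 means were above 0, a level against which they were not tested. Chromosome 3 was 0.0148 ± 0.0099 above the mean of the other partners (adjusted p = 0.899) and chromosome 19 was at -0.0194 ± 0.0125 (adjusted p = 0.899). Linkage with chromosome X was 0.0197 ± 0.0167. None of the 19 comparisons passed, and 0 were under 0.05 before adjustment by the sign-flip permutation test.

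Large-scale structure was looked for in a map of the 119 bins of 1 Mb, in which the mean D′ at each distance was subtracted. Bins of like GC content at least 10 Mb apart were not distinguished from bins of unlike GC content, with a difference of 0.0024 ± 0.0053 (SE, permutation p = 0.838). Pairs of 2 rich bins averaged 0.0152 ± 0.0068 above the mean at their distance (616 pairs), pairs of 2 poor bins -0.0018 ± 0.0085 (561 pairs) and mixed pairs 0.0047 ± 0.0041 (1386 pairs). Classing bins by their gene starts gave a difference of 0.0021 (p = 0.819). At least 30 Mb apart, rich pairs were at 0.0232 and poor pairs at -0.0170, and the difference of like from unlike was 0.0008 (p = 0.995).

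A leading eigenvector is often used to split a chromosome into compartments. That of the correlation matrix of this map, taken without centring, gave no even split. It carried 38.8% of the eigenvalue sum and set only 5 of 119 bins, from 109 to 114 Mb, against the other 114. Defined in the libraries of 10 experiments and tested in the 54 of the full collection, it set 7 bins against 112. Pairs at least 10 Mb apart within the large side exceeded pairs across sides by 0.134 ± 0.073 (SE, permutation p = 0.369), and the small side held 0 such pairs. In the reverse direction, with 5 bins against 114, the same-side pairs exceeded the others by 0.0205 ± 0.0123 (permutation p = 0.184), or 0.0415 with 2 Mb bins (p = 0.0452). There the 6 pairs of 1 Mb bins within the small side averaged -0.0297, below the -0.0188 of pairs across sides. With 2 Mb bins the small side held 1 pair, at -0.0827 against -0.0387 across sides. Neither difference was tested. After centring, a choice made once these results were known, the eigenvector carried 16.5% and gave 39 bins against 80 in 19 blocks. It correlated with position (Pearson's r = 0.61 over 119 bins) more than with GC content (0.19), and its blocks did not pass either test (permutation p = 0.536 and 0.0948).

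The 5 bins from 109 to 114 Mb formed a band of low linkage. They hold Kcnj2 and Sox9, 30 protein-coding gene starts in all, and were positive in 47.7 libraries on average against 56.1 for the other bins. Their linkage with bins at least 10 Mb away differed from the mean at that distance by -0.0691 ± 0.0202 (SE), and 475 of 501 such bin pairs (94.8%) were below it. The same value was -0.0450 ± 0.0119 with phi in place of D′, -0.0737 ± 0.0224 without the full collection and -0.146 ± 0.088 within it. These bins were picked from this map, so the values are a description with no test, and the part of their lower detection was not tested.

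Of the 4950 pairs of bins at least 20 Mb apart, the 3 lowest joined this band with bins of the segment from 40 to 50 Mb. The bins at 41 to 42 and 110 to 111 Mb, 69 Mb apart, had a D′ of -0.190 ± 0.081 (SE), or -0.262 ± 0.077 after the distance correction. It was -0.432 in the full collection and -0.239 in the other experiments. The highest joined the start of the chromosome with other bins. The bins at 3 to 4 and 53 to 54 Mb, which hold windows positive in more than 100 libraries, had a D′ of 0.258 ± 0.036, or 0.158 ± 0.035 after correction. The next, 5 to 6 with 37 to 38 Mb, was at 0.158 ± 0.040 although 1 bin had a GC content of 46.7% and the other 37.9%. Over all 4950 pairs, corrected linkage in the full collection and in the other experiments had a Pearson's r of 0.21, a description across pairs that share bins.

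A comparison of segments, added once the map was known, measured long-range linkage at a coarser scale. The first segment was linked to the rest of the chromosome by 0.0344 ± 0.0097 more than the mean at that distance (SE, sign-flip permutation p adjusted over 12 segments = 0.0391). Without windows positive in more than 100 libraries this was 0.0300 and did not pass (adjusted p = 0.0678). The segment from 50 to 60 Mb was at 0.0205 ± 0.0062 (adjusted p = 0.0566) and that from 100 to 110 Mb at -0.0241 ± 0.0095 (adjusted p = 0.119). The segment from 40 to 50 Mb, the least detected, was at -0.0200 ± 0.0075 (adjusted p = 0.119). None of these 3 passed.

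**Figure D5:**
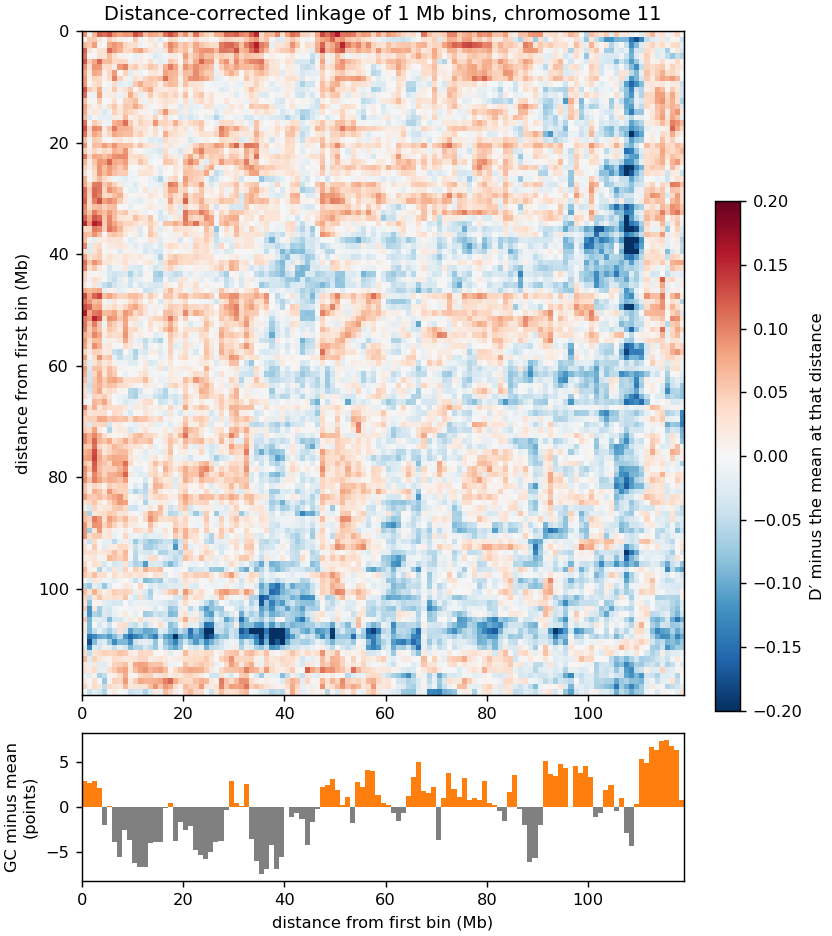
Top, D′ minus the mean at the same distance for each pair of 1 Mb bins of chromosome 11, red above and blue below, against distance from the first bin in Mb on both axes. Bottom, GC content of each bin minus the mean of the bins (percentage points). A blue band crosses the map at the 5 bins from 109 to 114 Mb of the chromosome, and no checkerboard follows the GC content.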

How the data were processed

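The deposited table holds, for every library and 40 kb window of mm9, the values 1 (positive) and 0 (any other), a unit of presence and not of reads. To make it, the authors aligned reads (Bowtie2, version 2.1 in the submitters' processing notes), removed duplicates and called a window positive at a fixed threshold of 4 reads, keeping libraries that passed their quality control. Read depth is therefore unknown, and no count model or depth-based interval was used. All columns matched a library (0 left over).

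The members and gene lists were chosen with earlier results of these data known. Genes were named from the listed ones only, as examples of each role, and windows, libraries, partners and pairs of bins were named from the extremes. Every segment was tested. GC content, genes (GENCODE vM1) and repeated 32-base stretches came from the mm9 assembly, whose chromosome lengths matched the table. D′ used windows positive in at least 25 libraries, with jackknife errors over libraries and sign-flip permutation tests of the jackknife pseudovalues (100000 resamples). Arms were compared by permutation, exact where an arm had fewer than 10 libraries. F statistics used 10000 resamples. P-values were adjusted by the Benjamini-Hochberg method at 0.05. Alternatives were window minima (25, 40), windows above 100 libraries, phi, covariance within experiments, coverage under 5%, bin size, medians and leaving out experiments or libraries. Scripts (Python 3.11.15, numpy 2.4.6, pandas 2.3.3, numba 0.67.0, matplotlib 3.10.9) were tested on simulated data. Each list's totals include genes that are not reported here by name.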

Additional observations from a re-analysis of the deposited data

Results flagged for a closer look

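Among 27 sets of values (9 groups of 4 to 10 libraries, 3 measures), 4 libraries stood apart from the rest of their group by Dixon's test at 95%, which chance does in about 1 of 20 groups. The first library of 20 PCR cycles had 9.15% of chromosome 11 windows positive, while the other 3 lay between 28.5 and 31.9%. Library 7 of those frozen after incubation was at -11.1 points relative to the other autosomes, against 0.955 to 9.07 points for the other 9. For the longest positive run on chromosome 11, library 3 of the proteinase K arm titled 2 µl had 1.24 Mb against 0.32 to 0.64 Mb in the others. Library 9 of reagent protocol a had 1.08 Mb against 0.28 to 0.64 Mb.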

How the results depend on the processing

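Of 971 alternative values, 956 kept both the direction of any call and their side of the threshold. For medians of segments the p-value stayed that of the mean, so only their direction could change. Detection of the first segment depended most on the setting. Its difference of 3.28 points was -0.216 as a median and 2.11 without windows above 100 libraries. It no longer passed without the cresyl violet (2.98), full collection (2.34), kit (2.93) or SYBR Gold (2.88) experiment. Without the full collection the segment from 30 to 40 Mb passed, at -2.65 points. Linkage at 80 to 120 Mb passed with a window minimum of 40 libraries (0.0381), with phi (0.0235) and without the cresyl violet (0.0437), early-freezing (0.0487) or freezing after incubation (0.0440) experiment. Blocks defined in 54 libraries passed with 2 Mb bins (0.0415), where the small side held 1 pair. Long-range linkage of the first segment did not pass without windows above 100 libraries (0.0300). The cause was not tested. Moving segment edges by 5 Mb put the low segment at 35 to 45 Mb (-2.88 points, adjusted p = 0.00559) and the high one at 3 to 5 Mb (7.58 points, adjusted p = 0.00013). Without 3 windows above 100 libraries the latter was 3.55 points and did not pass (adjusted p = 0.0819), a setting chosen after seeing the data. Leaving out single libraries left 25 minus 20 PCR cycles at 15.4 to 26 points, with too few libraries for this comparison to pass. No paired analysis was possible because the numbers of replicates are names that match no library of another arm. Unknown depth means that a value of 0 may be absence or too few reads.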
